A study of Homo sapiens with 16 samples.

Results

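Class I antigen presentation and interferon genes are described here across 16 RNA-seq libraries of the human melanoma cell lines SKMEL28 and A375. The 33 genes were chosen by symbol, out of 28278 counted, and all 33 symbols were found in every library. They comprise 11 class I presentation genes, 6 regulators and 16 interferon-stimulated genes. SKMEL28 gave 3 libraries each of clone 13 and clone 3 of a double knockout (DKO), made by editing TFE3 with CRISPR-Cas9 in the D2 line labelled MITFKO, 3 libraries of that MITFKO line, and 1 library of the wild-type line. A375 gave 3 libraries labelled TFE3KO and 3 of the wild-type line. No interferon or other agent is given for any group, all cells were grown in medium with 10% FBS, and the medium was RPMI for SKMEL28 and DMEM for A375, so line and medium cannot be told apart. Replicates were separate flasks of the same line or clone, so p-values measure the spread between flasks and not between independently edited clones.

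Class I molecules carry peptides from inside the cell to its surface, where CD8 T cells read them. Each consists of a heavy chain (HLA-B, HLA-C, HLA-E, HLA-F) and the light chain beta-2-microglobulin (B2M). The immunoproteasome subunits PSMB8, PSMB9 and PSMB10 cut peptides, the TAP1/TAP2 transporter moves them into the endoplasmic reticulum, and tapasin (TAPBP) helps to load them. NLRC5 is the transactivator of class I genes. Type I interferon activates STAT2 and IRF9, which bind an interferon-stimulated response element (ISRE) in target promoters, while interferon gamma induces IRF1. IRF2 can oppose IRF1 at the same sites, and IRF7 drives interferon genes. The targets include antiviral effectors (IFIT1, IFIT2, IFIT3, MX1, OAS1, OAS2, OAS3, IFITM1, IFITM2, IFITM3, ISG15, ISG20, BST2). Loss of class I presentation and tonic interferon signalling are both well known in melanoma.

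The promoter sequences were searched for the letters of short elements. RefSeq promoters (build GRCh38.p14, from 250 bases before to 50 bases after the start site) were found for 26 of the 33 genes. The ISRE letters GAAANNGAAA, searched on both strands, occurred in any promoter of 19 of the 26 genes, namely 7 of 10 class I genes, 0 of 3 regulators and 12 of 13 interferon-stimulated genes, and of 4.38% of all 27305 genes in the table. Some genes have several promoters: the 26 genes had 33, of which 23 held the ISRE letters, beside 3.57% of all 34796 promoters. The kappa B letters GGGATTCCC occurred in HLA-B and IRF1 among the 26 genes, and in 0.462% of all genes. The E-box letters CACGTG, which MITF and TFE3 can bind, occurred in IRF9 and ISG20 only among the 26 genes, and in 8.77% of all genes. The related letters CATGTG occurred in 0 of 26 and in 13.4% of all genes. A match is a description of the letters and says nothing of binding. Only these exact letters were searched, so variants with other letters or another spacing were not counted. The 200 bases before the start site (the first listed one where a gene has several) are given below for 8 genes on which the results below turn, chosen with their values known, with ISRE letters in capitals, or kappa B letters in the case of HLA-B and IRF1. ISRE matches overlap in B2M, and matches on the other strand read in reverse complement.
B2M, chr15:44711317-44711516, plus strand: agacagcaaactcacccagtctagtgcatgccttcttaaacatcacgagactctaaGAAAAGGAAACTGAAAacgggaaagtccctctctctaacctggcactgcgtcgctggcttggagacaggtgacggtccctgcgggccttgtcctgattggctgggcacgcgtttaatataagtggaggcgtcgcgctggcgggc
HLA-B, chr6:31357180-31357379, minus strand: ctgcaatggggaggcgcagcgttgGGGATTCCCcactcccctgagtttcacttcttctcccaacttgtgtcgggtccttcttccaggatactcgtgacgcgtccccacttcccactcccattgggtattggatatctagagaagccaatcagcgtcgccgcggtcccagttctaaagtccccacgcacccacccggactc
PSMB10, chr16:67936851-67937050, minus strand: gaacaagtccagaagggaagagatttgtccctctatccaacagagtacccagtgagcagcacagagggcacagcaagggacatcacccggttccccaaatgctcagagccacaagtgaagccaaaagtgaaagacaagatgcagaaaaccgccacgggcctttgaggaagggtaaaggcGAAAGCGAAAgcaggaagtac
IRF1, chr5:132490774-132490973, minus strand: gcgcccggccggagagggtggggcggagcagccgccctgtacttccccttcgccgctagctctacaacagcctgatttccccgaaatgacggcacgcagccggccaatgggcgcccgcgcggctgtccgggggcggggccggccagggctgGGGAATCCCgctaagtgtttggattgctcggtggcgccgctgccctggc
IFIT3, chr10:89327797-89327996, plus strand: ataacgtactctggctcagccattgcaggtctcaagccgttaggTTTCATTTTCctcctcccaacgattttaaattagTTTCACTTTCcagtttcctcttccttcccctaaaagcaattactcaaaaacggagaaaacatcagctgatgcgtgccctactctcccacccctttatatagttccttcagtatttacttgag
IFI44, chr1:78649589-78649788, plus strand: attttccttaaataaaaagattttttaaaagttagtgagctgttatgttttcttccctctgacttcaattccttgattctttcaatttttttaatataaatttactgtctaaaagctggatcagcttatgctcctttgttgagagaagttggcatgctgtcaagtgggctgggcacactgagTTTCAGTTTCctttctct
OAS3, chr12:112938274-112938473, plus strand: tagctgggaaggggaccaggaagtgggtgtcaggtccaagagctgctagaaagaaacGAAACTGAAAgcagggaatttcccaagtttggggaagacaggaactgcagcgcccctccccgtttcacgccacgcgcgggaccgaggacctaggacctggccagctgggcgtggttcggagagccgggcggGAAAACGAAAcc
IFITM3, chr11:320861-321060, minus strand: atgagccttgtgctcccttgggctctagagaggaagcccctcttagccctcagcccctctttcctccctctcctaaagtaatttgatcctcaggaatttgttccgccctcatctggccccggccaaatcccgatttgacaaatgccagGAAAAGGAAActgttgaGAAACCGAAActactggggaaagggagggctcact
In these windows OAS3, IFIT3 and IFITM3 hold separate ISRE matches.

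Levels are given as CPM, which are counts scaled to library size with TMM factors over all 16 libraries, and a gene was called higher or lower at an adjusted p under 0.05 in edgeR's quasi-likelihood test. Totals ran from 17320855 to 31269126 counts per library. TFE3 averaged 47.0 ± 2.98 CPM in DKO clone 13, 9.63 ± 1.85 in DKO clone 3 and 75.4 ± 3.79 in the libraries labelled MITFKO (SD, n = 3 each), against 45.0 in the lone wild-type SKMEL28 library. In A375 it averaged 11.6 ± 0.685 CPM in TFE3KO and 119 ± 5.67 in wild type. MITF itself averaged 512 CPM in the libraries labelled MITFKO and stood at 539 in wild type (edgeR adjusted p = 0.516). A whole-gene count includes edited transcripts and so does not check that label, and TFE3 counts were still present in clone 13. MITF averaged 894 CPM in clone 13 and 802 in clone 3 (log2 fold changes over MITFKO 0.81 and 0.65, edgeR adjusted p = 9.77e-10 and 3.67e-08). In A375 MITF averaged 18.0 CPM in TFE3KO and 34.7 in wild type (-0.94, edgeR adjusted p = 3.93e-13). The part of these MITF changes in the results was not tested. Summed melanocyte markers (10 genes) ran from 7066 to 8748 CPM in DKO clone 13, from 6424 to 7199 in clone 3 and from 5797 to 5995 in MITFKO, and stood at 14607 in SKMEL28 wild type. In A375, where TYR was at 0, they ran from 812 to 887 CPM in TFE3KO and from 540 to 568 in wild type. PMEL had the most counts of these markers in SKMEL28 and SOX10 in A375, and the sum includes MITF. The markers did not all move with the sum. In both clones MITF and S100B had more counts than in MITFKO, whereas DCT, PAX3 and GPR143 had fewer. Summed endothelium, fibroblast and keratinocyte markers (10 genes) ran from 114 to 125 CPM in clone 13, from 135 to 145 in clone 3 and from 80.0 to 91.4 in MITFKO, and stood at 82.1 in SKMEL28 wild type. In A375 they ran from 70.1 to 87.1 CPM in TFE3KO and from 72.6 to 74.8 in wild type. Summed leukocyte markers ran from 9.89 to 11.9 CPM in A375 TFE3KO and from 4.43 to 5.32 in A375 wild type, LYZ giving 9.65 ± 1.14 and 3.36 ± 0.373 of it, and reached at most 3.54 in SKMEL28. The part of these marker differences in the results was not tested. Replicate 2 of DKO clone 13 stood apart from its group: its counts differed from replicates 1 and 3 with a chi-square per degree of freedom of 21.9 and 23.3, against 3.20 to 7.14 for every other pair of replicates. The highest of these other pairs, 6.44 and 7.14, were those with replicate 2 of clone 3, whose replicates 1 and 3 gave 3.39. Called changes of clone 13 against MITFKO, and several other results, are therefore also given without replicate 2 of clone 13.

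Counting of the class I heavy-chain genes has a limit that bears on everything said of them. Of the 11 class I genes, 9 (HLA-B, HLA-C, HLA-E, HLA-F, TAP1, TAP2, TAPBP, PSMB8, PSMB9) lie in the stretch of chromosome 6 from HLA-F to KIFC1, and B2M (chromosome 15) and PSMB10 (chromosome 16) lie outside. Of 139 protein-coding genes in that stretch, 57 (41.0%) had 0 counts in all 16 libraries, against 106 of 850 (12.5%) on the rest of the chromosome. The median sum of counts over all libraries was 4 in the stretch and 2058.5 elsewhere on the chromosome. Genes that every cell uses were among those nearly uncounted: RPS18 had 4 counts over 16 libraries, CLIC1 6 and DDX39B 0, while BAK1 just beyond the stretch had 11422 (these examples were chosen after their values were seen). A line was taken to lack a gene at a mean under 1 count per library. Among genes with at least 100 counts, 24 of 572 (4.20%) elsewhere on chromosome 6 were lacking in 1 line. In the stretch these were 18 of 36. HSPA1A, for one, had 0 counts in SKMEL28 and 1051 in A375. The files may hold only part of the reads of these 9 genes, which was not tested gene by gene. Their CPM is therefore not read as a transcript level, and their levels in A375 and SKMEL28 are not compared here as expression. The hg19 build as distributed carries alternative copies of this region. Whether they were used in the alignment is not given in the sources used here, and their part in the low counts was not tested.

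**Figure D1:**
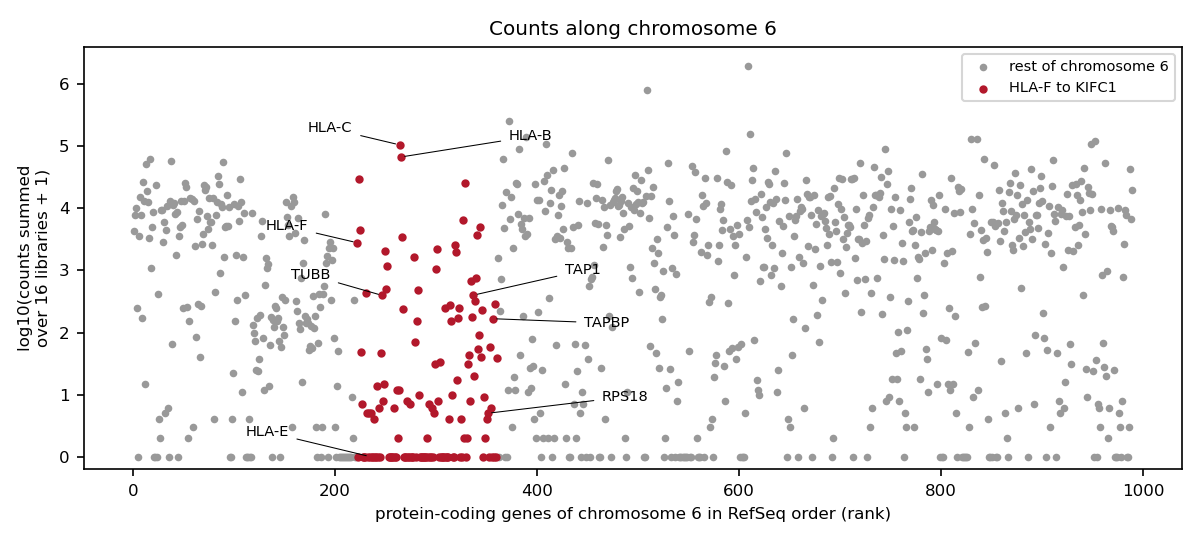
Counts along chromosome 6. Each point is a protein-coding gene in RefSeq order (x axis, rank), at the log10 of its counts summed over 16 libraries plus 1 (y axis). Red points are the 139 genes from HLA-F to KIFC1, of which 57 lie at 0, and grey points are the other 850 genes.

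HLA-E was listed at 0 in all 16 libraries, and PSMB9 had 1 count in SKMEL28 and 18 in A375. TAP1, TAP2, TAPBP and PSMB8 reached at most 2.08, 1.48, 0.818 and 1.23 CPM in any SKMEL28 library and 1.37, 4.41, 0.761 and 0.736 CPM in any A375 library, and none of them was called in a comparison within a line. HLA-F had 2794 counts over the SKMEL28 libraries and 2 over the A375 libraries. HLA-B and HLA-C carried most of the class I counts. They are near-identical in parts of their sequence, so reads may be divided between them in ways that the count cannot show. Outside chromosome 6, IFI27 was also listed at 0 in all 16 libraries, and 10 of 12 interferon ligand genes had 0 counts throughout, the others being IFNA5 with 1 count and IFNE with 36. IFITM2, MX1 and OAS2 were too low to test in SKMEL28. In bulk RNA, fewer cells that express a gene and less RNA per cell cannot be told apart.

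The libraries labelled MITFKO were first compared with the lone SKMEL28 wild-type library. Among the genes of both arms, HLA-B, HLA-C, IRF1, IRF2 and IRF7 were higher, and HLA-F, PSMB10 and BST2 were lower. That is 8 of 27 tested, where 48.6% of all 14605 tested genes were called. By group, class I genes had 2 higher and 2 lower of 9 tested (median log2 fold change 0.10), regulators 3 higher and 0 lower of 6 (0.80), and interferon-stimulated genes 0 higher and 1 lower of 12 (-0.09), beside a median of 0.01 over all genes. With 1 wild-type library, the test takes its spread from the other SKMEL28 groups.

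Among the regulators, IRF2, IRF1 and IRF7 were called higher. IRF2, which can oppose IRF1, had 33.3, 29.8 and 32.2 CPM in the libraries labelled MITFKO, against 17.1 in wild type (a log2 change of 0.89 ± 0.16, where ± gives the SE, adjusted p = 9.13e-05). IRF1, the interferon gamma-induced factor, had 12.0, 12.4 and 11.8 CPM, against 7.30 in wild type (0.72 ± 0.21, adjusted p = 0.00602). All 3 MITFKO libraries lay above the wild-type library for both genes. IRF7 was scarce, with 3.67, 2.74 and 3.53 CPM in MITFKO and 1.35 in wild type (1.29 ± 0.47, adjusted p = 0.0259), and its call ended without MITFKO replicate 1 (adjusted p = 0.0647) or replicate 3 (0.0581). STAT2 and IRF9, the partners in type I signalling, were not called (log2 fold changes -0.17 and -0.03), nor was NLRC5, at 4.29, 3.82 and 3.58 CPM in MITFKO and 2.13 in wild type (adjusted p = 0.0954).

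Of the class I genes outside the stretch, PSMB10 fell, with 13.4, 15.5 and 15.9 CPM in the libraries labelled MITFKO and 26.4 in wild type (log2 change -0.82 ± 0.17, adjusted p = 0.000387). The light chain B2M was not called: it had 54.1, 58.7 and 58.4 CPM in MITFKO and 53.1 in wild type (0.10 ± 0.12, adjusted p = 0.492). Inside the stretch, HLA-B had 243, 262 and 271 CPM in MITFKO, against 79.5 in wild type (1.70 ± 0.33, adjusted p = 0.00475). HLA-C had 370, 381 and 406 CPM, against 233 in wild type (0.73 ± 0.23, adjusted p = 0.0338), a call that ended without MITFKO replicate 1 (adjusted p = 0.0514), replicate 2 (0.0545) or replicate 3 (0.0638). HLA-F moved the other way, with 11.7, 10.8 and 12.4 CPM in MITFKO and 25.6 in wild type (-1.14 ± 0.17, adjusted p = 1.07e-05). HLA-B and HLA-C thus moved against HLA-F within the same stretch. Over the 642 tested genes of chromosome 6 the median log2 fold change in this comparison was -0.39, and the file header of the wild-type library names an aligner input of another number than those of the MITFKO libraries. The part of either in these values was not tested.

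Of the 12 interferon-stimulated genes tested, 11 were not called. IFI6 had 57.5, 56.5 and 59.4 CPM in the libraries labelled MITFKO and 60.2 in wild type (log2 change -0.06 ± 0.14), and IFIT3 had 10.6, 10.2 and 9.25 CPM, against 11.2 (-0.16 ± 0.19). ISG20, an exonuclease, had 93.5, 105 and 106 CPM, against 137 in wild type (-0.44 ± 0.48, adjusted p = 0.509), and was called only when the model held just these groups. BST2, which tethers virus particles, was the only one called, at 0.476, 0.258 and 0.818 CPM in MITFKO and 1.89 in wild type (adjusted p = 0.0363). These are few counts, and the call ended without MITFKO replicate 1 (adjusted p = 0.081) or replicate 2 (0.116).

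**Figure D2:**
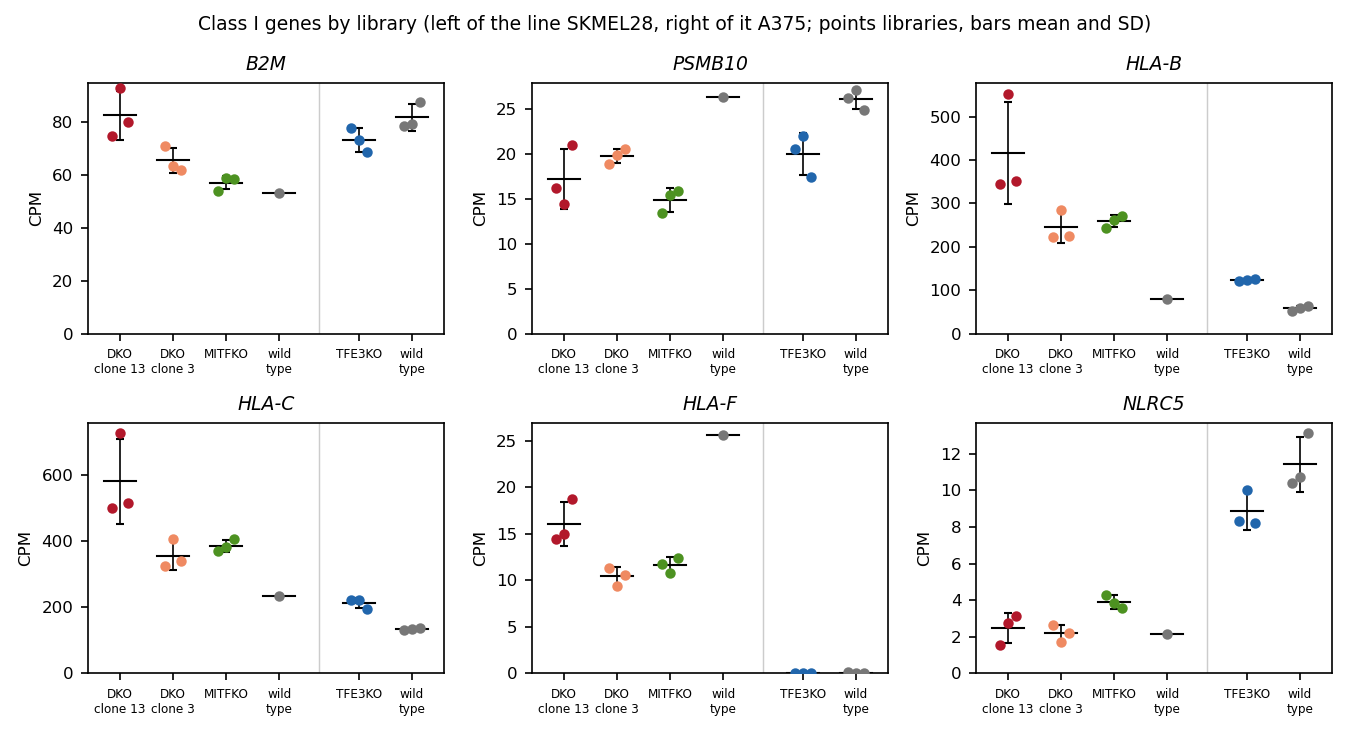
CPM (y axis, from 0) of 5 class I genes and of NLRC5 in each library by group (x axis), with SKMEL28 left of the line and A375 right of it. Points are libraries and bars the mean and SD. HLA-B and HLA-C were highest in replicate 2 of DKO clone 13 (552 and 728 CPM), and HLA-F was nearly uncounted in A375.

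Editing TFE3 in the MITFKO line was read in 2 clones, each set against the same 3 libraries labelled MITFKO. In DKO clone 13, B2M, HLA-B, HLA-C and HLA-F rose, while IRF2, IFI44, OAS1 and OAS3 fell. In DKO clone 3, PSMB10 and IFIT3 rose, and NLRC5, STAT2, IRF2 and IRF7 fell. These were 8 and 6 of 27 tested genes, where 40.7% and 35.9% of all tested genes were called in clone 13 and clone 3. For the mean of both clones 7 of 27 were called, against 41.1% of all genes. The class I genes had 4 higher and 0 lower of 9 tested in clone 13 (median log2 fold change 0.46) and 1 higher and 0 lower in clone 3 (-0.08). The interferon-stimulated genes had 0 higher and 3 lower of 12 in clone 13 (0.11) and 1 higher and 0 lower in clone 3 (0.23). The medians over all genes were -0.02 and -0.01.

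**Figure D3:**
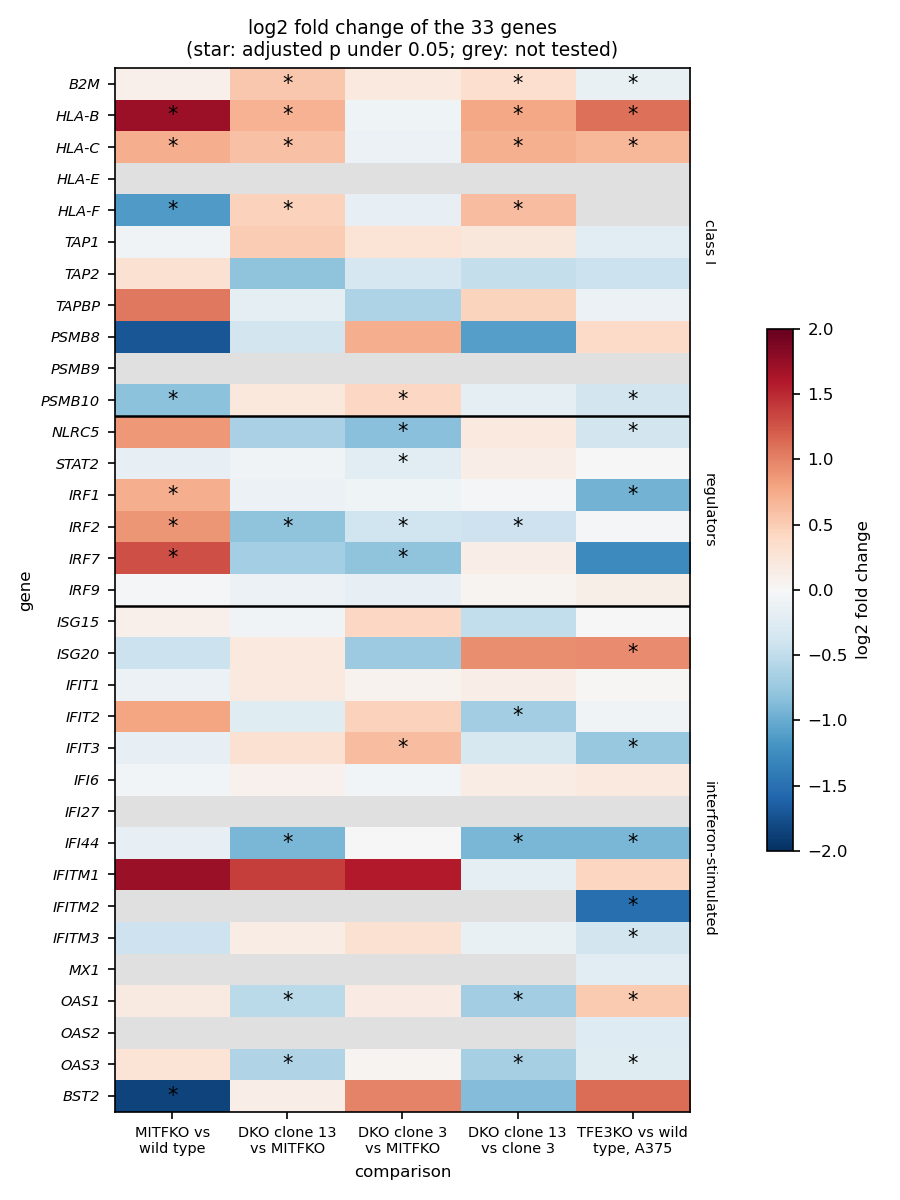
log2 fold change (colour) of the 33 genes (rows) in 5 comparisons (columns); stars mark an adjusted p under 0.05 and grey marks genes not tested. IRF2 carries a star in both DKO clones, whereas the class I stars in clone 13 (B2M, HLA-B, HLA-C, HLA-F) are absent from the clone 3 column.

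B2M, the class I light chain, lies outside the stretch. It had 74.6, 92.7 and 79.9 CPM in DKO clone 13 and 70.9, 63.4 and 62.0 in clone 3, against 54.1, 58.7 and 58.4 in MITFKO. Both clones lay above MITFKO without overlap, and the rise was called in clone 13 (log2 fold change 0.53 ± 0.08, adjusted p = 1.93e-05) but not in clone 3 (0.20 ± 0.08, adjusted p = 0.0671). Without clone 13 replicate 2, B2M still rose in clone 13 (0.44, adjusted p = 4.42e-06). PSMB10 had 16.3, 14.5 and 21.0 CPM in clone 13 and 19.0, 19.9 and 20.6 in clone 3, against 13.4, 15.5 and 15.9 in MITFKO. It rose in clone 3 (0.41 ± 0.13, adjusted p = 0.0178), though not without MITFKO replicate 1 (adjusted p = 0.103) or clone 3 replicate 3 (0.0628), and overlapped MITFKO in clone 13 (0.21 ± 0.13, adjusted p = 0.215), where it was called higher without replicate 2 (0.33, adjusted p = 0.0338).

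The heavy chains within the stretch were higher in clone 13 and not called in clone 3. HLA-B had 345, 552 and 353 CPM in DKO clone 13 and 223, 285 and 226 in clone 3, against 243, 262 and 271 in MITFKO. HLA-C had 499, 728 and 515 CPM in clone 13 and 323, 405 and 340 in clone 3, against 370, 381 and 406 in MITFKO. The 3 clone 13 libraries lay above all MITFKO libraries for both genes, with replicate 2 highest, whereas clone 3 overlapped MITFKO. The log2 fold changes in clone 13 were 0.69 ± 0.21 for HLA-B (adjusted p = 0.0365) and 0.59 ± 0.16 for HLA-C (0.0194), and without clone 13 replicate 2 they were 0.44 (adjusted p = 0.00183) and 0.40 (7.23e-05). The HLA-B call ended without MITFKO replicate 1 (adjusted p = 0.108), 2 (0.0909) or 3 (0.0767), and the HLA-C call without replicate 1 (0.0613) or 2 (0.0517). HLA-F had 14.4, 14.9 and 18.7 CPM in clone 13 and 11.3, 9.34 and 10.6 in clone 3, against 11.7, 10.8 and 12.4 in MITFKO. It rose in clone 13 (0.46 ± 0.14, adjusted p = 0.00848), though not without MITFKO replicate 2 (adjusted p = 0.0504) or clone 13 replicate 3 (0.0662). Without clone 13 replicate 2 its log2 fold change was 0.52 (adjusted p = 0.00272).

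All 6 regulators had a negative log2 fold change in both clones. IRF2 was the one called in each: it had 19.7, 15.2 and 19.6 CPM in DKO clone 13 and 23.7, 22.7 and 26.2 in clone 3, against 33.3, 29.8 and 32.2 in MITFKO. Neither clone overlapped MITFKO, and the log2 fold changes were -0.81 ± 0.11 in clone 13 (adjusted p = 4.97e-06) and -0.39 ± 0.11 in clone 3 (0.00788). Without clone 13 replicate 2 the IRF2 value in clone 13 was -0.69 (adjusted p = 1.28e-06). NLRC5, the class I transactivator, had 1.56, 2.74 and 3.13 CPM in clone 13 and 2.65, 1.71 and 2.19 in clone 3, against 4.29, 3.82 and 3.58 in MITFKO. It fell in clone 3 (-0.84 ± 0.30, adjusted p = 0.0312) and was not called in clone 13 (-0.64 ± 0.29, adjusted p = 0.081). For the mean of both clones it fell by 0.74 on the log2 scale (adjusted p = 0.0196), a call that ended without MITFKO replicate 1 (0.0958) or 2 (0.058). All 3 clone 13 libraries thus had more counts of B2M, HLA-B, HLA-C and HLA-F and fewer of NLRC5 than any MITFKO library.
The clone 3 calls of NLRC5, STAT2 and IRF7 were not firm. That of NLRC5 ended without MITFKO replicate 1 (adjusted p = 0.106), 2 (0.0712) or 3 (0.0534) or clone 3 replicate 2 (0.12) or 3 (0.0744). STAT2, with a log2 fold change of -0.22 ± 0.08 in clone 3, lost its call without any 1 of 5 of the 6 libraries (adjusted p from 0.0692 to 0.241, the exception being clone 3 replicate 2). IRF7 fell in clone 3 from few counts (1.79, 2.11 and 1.77 CPM in clone 3, against 3.67, 2.74 and 3.53 in MITFKO), and lost its call without any 1 of the 6 libraries (adjusted p from 0.0551 to 0.146). IRF1 was not called in either clone, with 11.8, 9.90 and 11.5 CPM in clone 13 and 12.9, 10.8 and 10.3 in clone 3, against 12.0, 12.4 and 11.8 in MITFKO.

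Among interferon-stimulated genes, OAS3, OAS1 and IFI44 fell in clone 13 and IFIT3 rose in clone 3. The antiviral sensor OAS3 had 22.0, 19.8 and 24.2 CPM in DKO clone 13 and 34.4, 33.9 and 35.9 in clone 3, against 33.3, 30.4 and 36.3 in MITFKO. Its paralog OAS1 had 9.20, 9.70 and 10.2 CPM in clone 13 and 16.6, 16.9 and 13.7 in clone 3, against 13.8, 14.2 and 14.4 in MITFKO. Both were lower in every clone 13 library than in any MITFKO library (log2 fold changes -0.60 ± 0.10, adjusted p = 4.60e-05, and -0.54 ± 0.13, adjusted p = 0.00215), and in clone 3 both overlapped MITFKO. IFI44 had 3.41, 1.49 and 2.34 CPM in clone 13 and 3.46, 4.27 and 5.79 in clone 3, against 4.10, 4.45 and 5.01 in MITFKO. It fell in clone 13 (-0.91 ± 0.28, adjusted p = 0.0115, and 0.0535 without MITFKO replicate 3). Without clone 13 replicate 2, IFI44, OAS1 and OAS3 stayed called in clone 13 at -0.65, -0.53 and -0.52 (adjusted p = 0.0482, 0.00298 and 4.52e-05). IFIT3, of the IFIT family that binds foreign RNA, had 12.3, 11.3 and 13.4 CPM in clone 13 and 13.9, 16.5 and 15.8 in clone 3, against 10.6, 10.2 and 9.25 in MITFKO. Every library of both clones lay above MITFKO, and the rise was called in clone 3 (0.62 ± 0.13, adjusted p = 0.000953) and for the mean of both clones (0.46 ± 0.12, adjusted p = 0.00337), with an adjusted p of 0.0832 in clone 13. Without clone 13 replicate 2 it was called there as well (0.37, adjusted p = 0.0431). ISG20 was uneven: it had 78.9, 185 and 83.5 CPM in clone 13 and 55.5, 74.8 and 53.0 in clone 3, against 93.5, 105 and 106 in MITFKO, and neither clone was called (log2 fold change 0.19 in clone 13). With only the groups compared in the model it was called lower in clone 3 (-0.73, adjusted p = 0.000251). Without clone 13 replicate 2 its value in clone 13 was -0.32 (adjusted p = 0.0543), and its mean over both clones was called lower (log2 fold change -0.52, adjusted p = 0.000685), against -0.27 (0.541) with it.

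**Figure D4:**
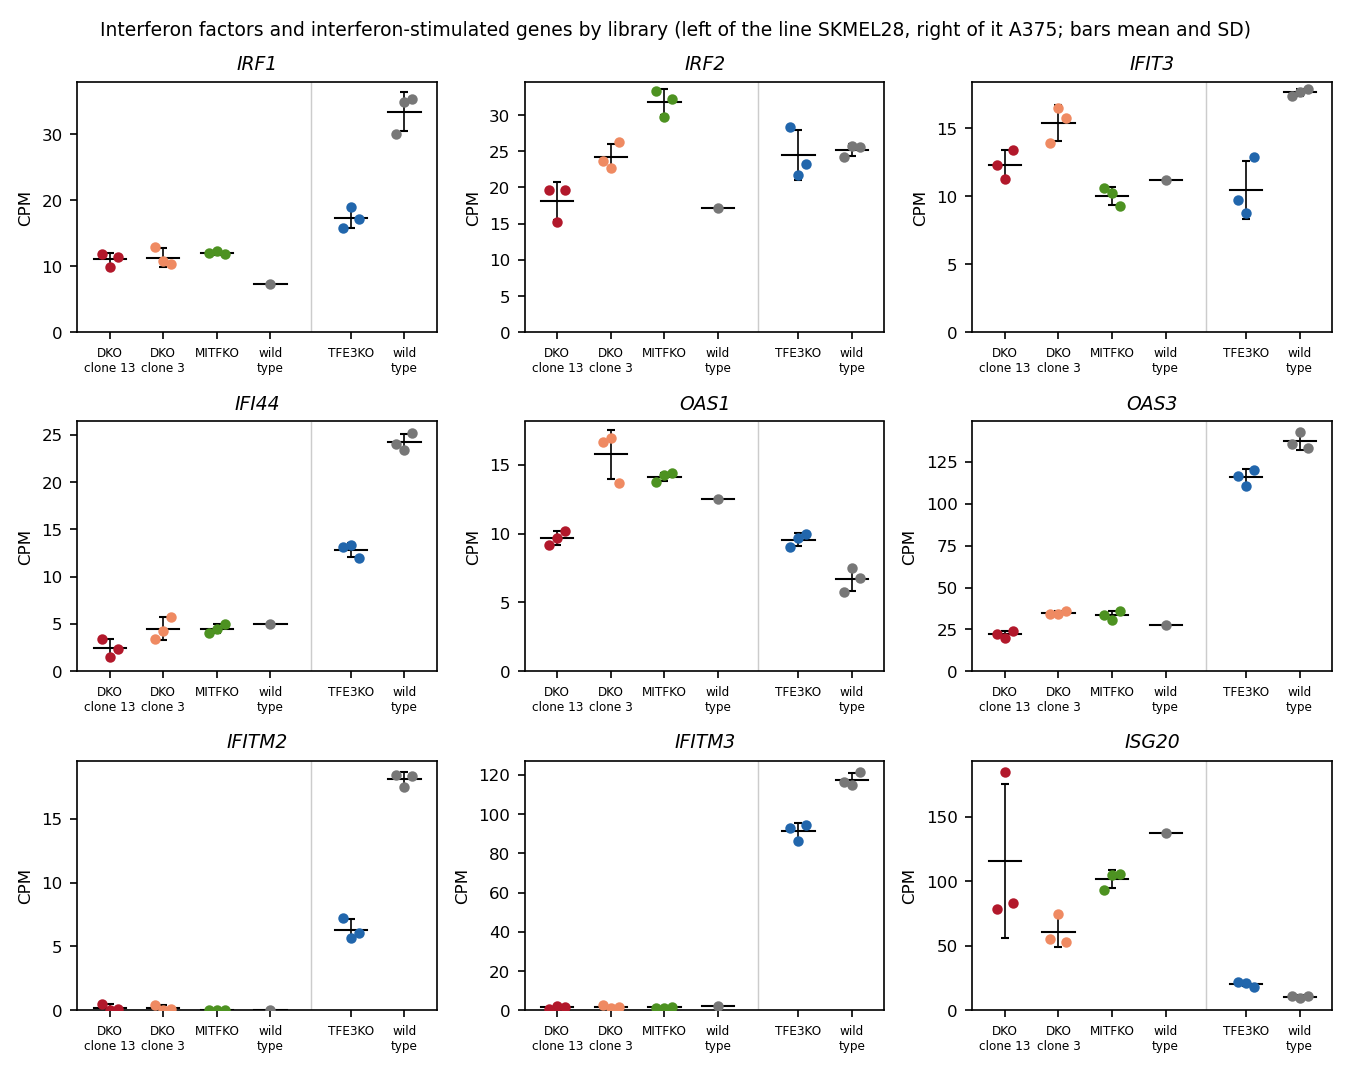
CPM (y axis, from 0) of IRF1, IRF2 and 7 interferon-stimulated genes in each library by group (x axis), with SKMEL28 left of the line and A375 right of it. Points are libraries and bars the mean and SD. OAS1 and OAS3 were lowest in DKO clone 13 among the SKMEL28 groups, and IFITM3 reached at most 2.48 CPM in SKMEL28.

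The clones were compared with each other directly, clone 13 over clone 3. Of 27 tested genes 4 were higher and 5 lower, where 27.6% of all genes were called. All 4 that were higher were class I genes: B2M (log2 fold change 0.33 ± 0.08, adjusted p = 0.00397), HLA-B (0.77 ± 0.21, 0.035), HLA-C (0.71 ± 0.16, 0.0139) and HLA-F (0.62 ± 0.14, 0.00171). The 5 that were lower were IRF2 (-0.42 ± 0.11, adjusted p = 0.00892) and the interferon-stimulated genes IFIT2 (-0.70 ± 0.26, 0.0492), IFI44 (-0.91 ± 0.28, 0.0189), OAS1 (-0.70 ± 0.13, 0.000372) and OAS3 (-0.66 ± 0.10, 3.43e-05). The median log2 fold change was 0.33 for class I genes and -0.41 for interferon-stimulated genes, beside 0.00 over all genes, with 6 of 9 class I genes and 3 of 12 interferon-stimulated genes above 0. ISG20 was not called (0.92 ± 0.36, adjusted p = 0.116), but was called higher with DESeq2 (adjusted p = 0.0406) and without clone 13 replicate 2 (0.42, edgeR adjusted p = 0.0258). Without clone 13 replicate 2, the log2 fold changes of B2M, HLA-B, HLA-C and HLA-F were 0.25, 0.52, 0.52 and 0.68 and all 4 stayed called, and that of IFI44 was -0.65 (adjusted p = 0.0736). The HLA-B call ended without clone 3 replicate 1 (adjusted p = 0.103) or 3 (0.104), the IRF2 call without clone 3 replicate 3 (0.0579) and the IFI44 call without clone 3 replicate 3 (0.128). That of IFIT2 ended without 5 of the 6 libraries in turn, the exception being clone 3 replicate 2 (adjusted p from 0.0544 to 0.215). The IFIT2 call also ended with DESeq2 (adjusted p = 0.0734) and with DESeq2 size factors in edgeR (0.0527). With no filter on low counts, the HLA-B and IFIT2 calls ended (0.0517 and 0.067). With only the groups compared in the model, those of HLA-B, IFI44 and IFIT2 ended (0.0686, 0.0551 and 0.0702). TFE3 itself was higher in clone 13 than in clone 3 (2.29 ± 0.11, adjusted p = 2.53e-12), and its part in these differences was not tested.

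In A375, TFE3KO was compared with wild type, 3 libraries each. HLA-B, HLA-C, ISG20 and OAS1 rose, while B2M, PSMB10, NLRC5, IRF1, IFIT3, IFI44, IFITM2, IFITM3 and OAS3 fell. These were 13 of 29 tested genes (44.8%), where 43.3% of all 14012 tested genes were called, so the share is near that of all genes. By group the counts were 2 higher and 2 lower of 8 class I genes (median log2 fold change -0.14), 0 higher and 2 lower of 6 regulators (-0.20), and 2 higher and 5 lower of 15 interferon-stimulated genes (-0.07), beside a median of 0.00 over all genes.

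The regulator IRF1 fell furthest among the regulators called. It had 15.9, 19.1 and 17.2 CPM in TFE3KO, against 30.0, 34.9 and 35.4 in wild type (log2 change -0.95 ± 0.09, adjusted p = 6.25e-13). NLRC5 had 8.31, 10.0 and 8.20 CPM in TFE3KO and 10.4, 10.7 and 13.1 in wild type (-0.37 ± 0.14, adjusted p = 0.0244). The groups did not overlap for either gene, but the NLRC5 call ended without wild-type replicate 3 (adjusted p = 0.188) or TFE3KO replicate 1 (0.0981) or 3 (0.0692). IRF2 was not called, at 28.3, 21.8 and 23.3 CPM in TFE3KO and 24.2, 25.8 and 25.5 in wild type (-0.03 ± 0.09), and STAT2 was not called either (adjusted p = 0.996).

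The called class I genes outside and inside the chromosome 6 stretch moved in opposite directions. Outside the chromosome 6 stretch, PSMB10 had 20.6, 22.1 and 17.4 CPM in TFE3KO, against 26.3, 27.2 and 24.9 in wild type (log2 change -0.37 ± 0.09, adjusted p = 0.000648). B2M had 77.6, 73.2 and 68.5 CPM in TFE3KO and 78.6, 79.0 and 87.5 in wild type (-0.15 ± 0.06, adjusted p = 0.0195), a small change whose call ended without wild-type replicate 3 (0.177) or TFE3KO replicate 2 (0.0573) or 3 (0.104). Inside it, HLA-B had 122, 122 and 127 CPM in TFE3KO, against 51.0, 58.3 and 64.2 in wild type (1.10 ± 0.06, adjusted p = 2.45e-21). HLA-C had 221, 222 and 195 CPM in TFE3KO, against 132, 136 and 136 in wild type (0.67 ± 0.04, adjusted p = 2.36e-19). HLA-B and HLA-C were thus higher in all 3 TFE3KO libraries while B2M and PSMB10 were lower, and these 2 heavy chains rest on reads of which an unknown share was counted.

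Of the interferon-stimulated genes, IFITM2, which blocks virus entry, changed most among those called. It had 7.21, 5.67 and 6.08 CPM in TFE3KO, against 18.5, 17.5 and 18.3 in wild type (log2 change -1.50 ± 0.13, adjusted p = 9.54e-15). Its paralog IFITM3 had 92.9, 86.4 and 94.4 CPM in TFE3KO, against 116, 115 and 121 in wild type (-0.36 ± 0.05, adjusted p = 7.41e-09); the 2 genes are near-identical in sequence, so reads may be divided between them. IFI44 had 13.1, 13.3 and 12.0 CPM, against 24.0, 23.4 and 25.2 in wild type (-0.91 ± 0.10, adjusted p = 4.50e-11). The groups were apart for each of these genes. IFIT3 had 9.75, 8.75 and 12.9 CPM in TFE3KO, against 17.4, 17.6 and 17.9 in wild type (-0.76 ± 0.12, adjusted p = 5.97e-07), and OAS3 had 117, 111 and 120 CPM, against 136, 143 and 133 (-0.24 ± 0.04, adjusted p = 9.85e-06). Against these, ISG20 rose, with 22.0, 21.5 and 18.4 CPM in TFE3KO and 11.1, 9.69 and 11.3 in wild type (0.95 ± 0.11, adjusted p = 3.12e-10). OAS1 rose as well, with 9.02, 9.69 and 10.0 CPM in TFE3KO and 5.76, 7.47 and 6.77 in wild type (0.52 ± 0.15, adjusted p = 0.00354), so OAS1 and OAS3 moved in opposite directions. MX1 and OAS2 were not called (-0.21 ± 0.18 and -0.26 ± 0.15), and neither were ISG15, IFIT1, IFIT2 and IFI6 (from -0.07 to 0.20).

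The change with TFE3 editing was then compared between the lines, as the mean of both DKO clones over MITFKO minus TFE3KO over wild type in A375. TFE3 was edited in the MITFKO line in SKMEL28, whereas A375 carries no MITFKO label. Line, medium and MITF background therefore cannot be told apart here. MITF counts changed by 0.73 in SKMEL28 and -0.94 in A375 on the log2 scale, a difference of 1.68 ± 0.09 (edgeR adjusted p = 1.25e-13). The part of MITF in the differences below was not tested. Of 30 tested genes 5 differed in the positive and 5 in the negative direction, where 37.7% of all genes were called. IFIT3 moved in opposite directions: its log2 fold change was 0.46 in SKMEL28 and -0.76 in A375, a difference of 1.23 ± 0.18 (adjusted p = 2.72e-06). B2M and PSMB10 were likewise opposed, with 0.36 and 0.31 in SKMEL28 and -0.15 and -0.37 in A375 (differences of 0.53 ± 0.10, adjusted p = 0.000113, and 0.70 ± 0.16, adjusted p = 0.000895). The rise of PSMB10 in SKMEL28 lost its call in 6 of 14 alternatives, with adjusted p up to 0.195. IRF1 was not called in SKMEL28 (-0.10) and fell in A375 (-0.95), a difference of 0.85 ± 0.15 (adjusted p = 5.90e-05). IRF2 fell in SKMEL28 (-0.60) and not in A375 (-0.03), a difference of -0.56 ± 0.14 (adjusted p = 0.00243).
For OAS1 the log2 fold changes were -0.19 in SKMEL28 and 0.52 in A375, a difference of -0.70 ± 0.18 (adjusted p = 0.00246). The SKMEL28 value of OAS1 was not called (adjusted p = 0.187). It averages -0.54 in clone 13 with a clone 3 value that was not called (adjusted p = 0.359). OAS3 was at -0.27 in SKMEL28 and -0.24 in A375 (difference -0.02 ± 0.09). That SKMEL28 value is the mean of -0.60 in clone 13 and 0.06 in clone 3 (adjusted p = 0.673 in clone 3), and its call ended without MITFKO replicate 3 (adjusted p = 0.106). HLA-B was 0.30 in SKMEL28 and 1.10 in A375, a difference of -0.78 ± 0.23 (adjusted p = 0.0224). That call ended without MITFKO replicate 3 (0.0502) or A375 wild-type replicate 1 (0.0583). The SKMEL28 value of HLA-B was not called (adjusted p = 0.235), with 0.69 in clone 13 and no call in clone 3 (adjusted p = 0.811). ISG20 differed by -1.21 ± 0.43 (adjusted p = 0.0492), a call that ended in 12 of the 15 leave-one-out fits, with adjusted p up to 0.106, and a lower adjusted p without clone 13 replicate 2 (-1.46, adjusted p = 1.42e-09). HLA-C was not called (-0.42 ± 0.18, adjusted p = 0.0889), but was called without clone 13 replicate 2 (-0.51, adjusted p = 2.47e-05), without clone 3 replicate 2 (-0.47, 0.0456) and with no filter on low counts (-0.43, 4.20e-08). The calls of IFITM2 and OAS2 rest on SKMEL28 libraries with at most 10 counts of either gene, so the sizes of their differences are uncertain.

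**Figure D5:**
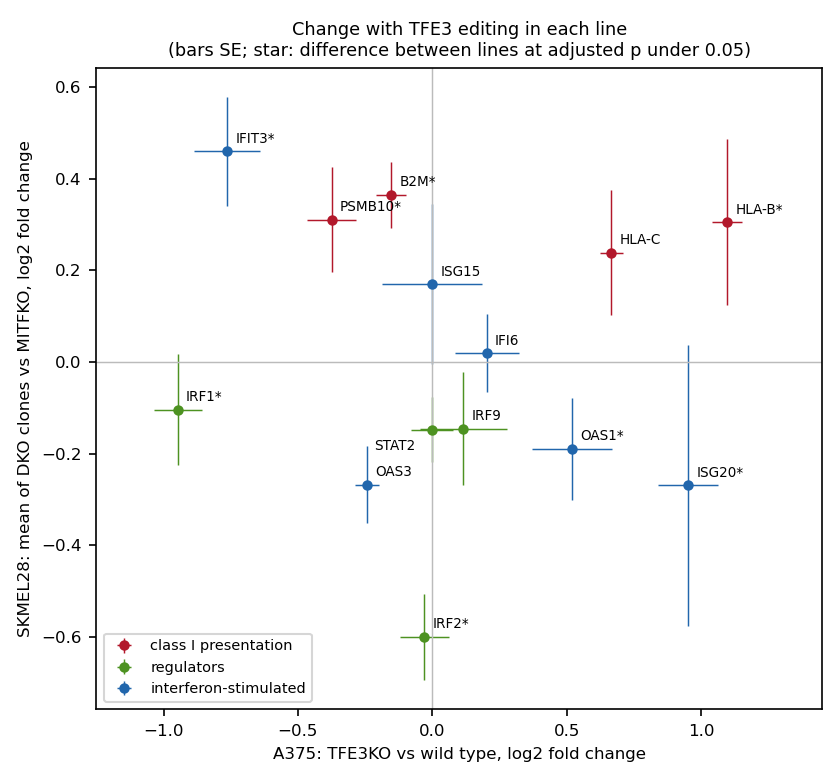
log2 fold change with TFE3 editing in A375 (x axis, TFE3KO over wild type) and in SKMEL28 (y axis, mean of both DKO clones over MITFKO) for the genes tested in both lines with a mean of at least 5 CPM in the higher group of each. Bars are standard errors and stars mark a called difference between lines. IFIT3, B2M and PSMB10 lie above 0 in SKMEL28 and below 0 in A375.

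The wild-type lines were compared as well, A375 over the lone SKMEL28 library. Outside the chromosome 6 stretch 12 of 23 tested genes were higher and 7 lower in A375, where 67.6% of all genes were called. The 7 tested genes inside it, with 1 higher and 2 lower, are not read as levels. Interferon-stimulated genes had 8 higher and 5 lower of 15 (median log2 fold change 0.65) and regulators 3 higher and 2 lower of 6 (-0.16), beside a median of 0.04 over all genes. IFITM3 had 116, 115 and 121 CPM in A375 and 1.97 in SKMEL28 (log2 fold change 5.89 ± 0.24, adjusted p = 2.87e-18). IFITM2 averaged 18.1 CPM in A375 and had 0 counts in SKMEL28, at least 147-fold higher against a floor of 3 counts in that library. OAS3 had 136, 143 and 133 CPM in A375, against 27.6 (2.31 ± 0.11, adjusted p = 1.34e-17). IFI44, OAS2 and MX1 were also higher in A375 (2.26 ± 0.27, 5.04 ± 0.64 and 4.37 ± 0.64), the last 2 resting on 6 and 8 counts in SKMEL28.
Other interferon-stimulated genes were lower in A375. ISG20 had 11.1, 9.69 and 11.3 CPM in A375, against 137 in SKMEL28 (-3.68 ± 0.40, adjusted p = 7.18e-06), and IFI6 had 12.4, 10.6 and 14.0 CPM, against 60.2 (-2.29 ± 0.14, adjusted p = 1.61e-14). IFIT1 and OAS1 were lower too (-1.43 ± 0.24 and -0.91 ± 0.18). The regulators were mixed as well. NLRC5 had 10.4, 10.7 and 13.1 CPM in A375, against 2.13 in SKMEL28 (2.42 ± 0.33, adjusted p = 1.50e-07), and IRF1 had 30.0, 34.9 and 35.4 CPM, against 7.30 (2.19 ± 0.19, adjusted p = 8.37e-12), whereas STAT2 and IRF9 were lower in A375 (-0.87 ± 0.11 and -1.22 ± 0.20). Of the class I genes counted outside the stretch, B2M was higher in A375, at 78.6, 79.0 and 87.5 CPM, against 53.1 (0.62 ± 0.11, adjusted p = 9.96e-06), and PSMB10 was not called (-0.02 ± 0.16).

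Further genes of the same pathways were followed from lists of 18 other presentation genes and 49 other interferon pathway genes. In SKMEL28 the other presentation genes had 8 higher and 0 lower of 17 tested in each of clone 3 and the mean of both clones, and 7 higher and 0 lower in clone 13. These are 47.1%, 47.1% and 41.2% of those tested, where 35.9%, 41.1% and 40.7% of all genes were called. The chaperone calreticulin (CALR) had 1432, 1572 and 1461 CPM in clone 13 and 1001, 1063 and 983 in clone 3, against 795, 782 and 821 in MITFKO. It rose in clone 13 (log2 fold change 0.90 ± 0.06, adjusted p = 3.16e-11) and in the mean of both clones (0.62 ± 0.05, adjusted p = 1.45e-09). Many genes of this list also serve general protein folding or the constitutive proteasome. In A375 TFE3KO the same list had 2 higher and 9 lower of 18 (61.1%, where 43.3% of all genes were called). The aminopeptidase ERAP2, which trims peptides, had 2.09, 2.45 and 3.04 CPM in TFE3KO and 3.75, 5.24 and 4.71 in wild type. Between lines 13 of 18 differed in the positive direction and 1 in the negative (77.8%, where 37.7% of all genes were called), ERAP2 by 1.10 ± 0.19 (adjusted p = 4.66e-05).

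The other interferon pathway genes had 7 higher and 18 lower of 40 tested in clone 13, 3 higher and 13 lower in clone 3, and 5 higher and 18 lower of 43 in A375 TFE3KO; the medians of their log2 fold changes were -0.30, -0.08 and -0.17, beside -0.02, -0.01 and 0.00 over all genes. The shares called were 62.5%, 40.0% and 53.5%, where 40.7%, 35.9% and 43.3% of all genes were called. PLSCR1, a scramblase induced by interferon, had 8.22, 7.26 and 8.84 CPM in clone 13 and 10.9, 10.3 and 11.1 in clone 3, against 24.7, 27.5 and 29.8 in MITFKO. Both clones were far below MITFKO (log2 fold changes -1.75 ± 0.12 and -1.34 ± 0.12). SAMD9L, a restriction factor of viruses, had 1.04, 0.547 and 1.22 CPM in clone 13 and 5.53, 5.70 and 5.85 in clone 3, against 6.33, 5.43 and 6.24 in MITFKO. It was lower in clone 13, and the direct difference between clones was -2.60 ± 0.27 (adjusted p = 2.34e-07). Its paralog SAMD9 was lower in clone 13 than in clone 3 as well (-1.51 ± 0.12), and the interferon receptor kinase TYK2 was higher (0.52 ± 0.08). HERC5, the ligase that attaches ISG15, fell in clone 13 (-1.62 ± 0.14). PARP14 (-0.88 ± 0.09) and DHX58, of the RIG-I family (-0.84 ± 0.15), fell in clone 3. Each was lower in the other clone as well. HERC5 had 198, 232 and 234 counts in clone 3, against 455, 339 and 356 in MITFKO. In clone 13, PARP14 had 367, 399 and 379 counts, against 967, 867 and 837 in MITFKO. DHX58 had 100, 131 and 121 counts in clone 13, against 311, 298 and 324 in MITFKO. SOCS3, a feedback inhibitor of cytokine signalling, moved the other way, rising in clone 13 (0.97 ± 0.14) and clone 3 (1.19 ± 0.14).
In A375 TFE3KO the RNA sensors DDX58 and IFIH1 fell. DDX58 had 3.16, 3.57 and 4.29 CPM in TFE3KO, against 9.87, 8.16 and 7.75 in wild type (log2 change -1.24 ± 0.18, adjusted p = 6.39e-08), and IFIH1 changed by -0.95 ± 0.20 (adjusted p = 9.45e-05). PARP14 changed by -0.89 ± 0.08 (adjusted p = 1.90e-13). The guanylate-binding protein GBP2 rose, with 10.2, 9.55 and 10.1 CPM in TFE3KO and 2.92, 3.01 and 4.90 in wild type (1.46 ± 0.18, adjusted p = 7.44e-10), as did the interferon gamma receptor chain IFNGR2 (0.64 ± 0.12) and IFI35 (0.46 ± 0.12). In the libraries labelled MITFKO, IFNGR2 was also higher, with 35.1, 36.2 and 31.5 CPM, against 12.1 in wild type (1.50 ± 0.18, adjusted p = 4.71e-07), along with DHX58 (1.01 ± 0.21) and GBP2 (1.00 ± 0.21). PARP9, PLSCR1 and SOCS3 were lower there (-1.05 ± 0.13, -0.98 ± 0.14 and -0.77 ± 0.19).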

How the data were processed

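Total RNA of 16 cultures was sequenced, and the deposited files hold whole-number counts of reads per gene for each library. The submitters' processing notes name STAR, featureCounts, DESeq2 and the hg19 build, with no versions or roles. The file headers, per which the counts were made from STAR alignments, give the aligner input another number for the wild-type SKMEL28 library than for the rest, and none for 1 A375 wild-type library. Strandedness is not given in the sources used here. Groups were taken from the sample labels.

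Counts were tested as deposited with edgeR 4.0.16 in R 4.3.3 (TMM scaling, filterByExpr by group, robust quasi-likelihood F-test, Benjamini-Hochberg adjustment over all genes tested, threshold 0.05). The SKMEL28 fit held 10 libraries, the A375 fit 6, the fit for the difference between lines 15, and that for the wild-type lines all 16. CPM used 1 set of TMM factors over all 16 libraries, so folds of CPM can differ slightly from fitted ones. Alternatives were DESeq2 1.42.0, its size factors in edgeR, no filter, only the groups compared, a replicate block and leaving out each replicate. The fits were tested on simulated counts. A count of 0 was set against a floor of 3 counts, which covers counting error only. Of the 33 genes, per-library values are given for those that results turn on; of other pathway genes, the up to 3 largest called changes in each direction with a mean of at least 5 CPM were eligible to be named. The members and lists were chosen with earlier results of these data known. Promoters are from RefSeq, GRCh38.p14, and no coordinates of the deposited build were used.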

Additional observations from a re-analysis of the deposited data

Results flagged for a closer look

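Differences between the clones and between the lines, tested directly with edgeR's quasi-likelihood test and Benjamini-Hochberg adjustment, are collected here. Between DKO clone 13 and DKO clone 3 the log2 differences were 0.33 for B2M, 0.77 for HLA-B, 0.71 for HLA-C and 0.62 for HLA-F. They were -0.42 for IRF2, -0.70 for IFIT2, -0.91 for IFI44, -0.70 for OAS1 and -0.66 for OAS3. Between the change with TFE3 editing in SKMEL28 and that in A375, the log2 differences were 0.53 for B2M, 0.70 for PSMB10, 0.85 for IRF1, 1.23 for IFIT3 and 4.56 for IFITM2. They were -0.78 for HLA-B, -0.56 for IRF2, -1.21 for ISG20, -0.70 for OAS1 and -3.24 for OAS2. Those of IFITM2 and OAS2 rest on at most 10 counts in any SKMEL28 library. In the comparison between lines, line, medium and MITF background cannot be told apart. Some alternatives ended the calls of HLA-B, IRF2, IFIT2 and IFI44 between the clones, and of HLA-B, ISG20 and OAS2 between the lines. The IFIT2 call ended in 9 of 11 alternatives and the ISG20 call in 13 of 19. That of OAS2 ended without MITFKO replicate 3 (adjusted p = 0.125).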

How the results depend on the processing

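None of the 33 genes reversed a called direction under any alternative run. With only the groups compared in the model, 5 genes were lower in MITFKO against wild type (3 in the full fit) and 3 were lower in DKO clone 13 against clone 3 (5). With DESeq2, 2 genes were lower in DKO clone 3 against MITFKO (4). Leaving out 1 replicate at a time gave 3 to 4 genes higher in MITFKO against wild type (5), 1 to 2 higher and 1 to 2 lower in clone 3 against MITFKO (2 and 4), 1 to 6 higher in clone 13 against MITFKO (4), 2 to 5 lower for the mean of both clones (4), 3 to 5 lower in clone 13 against clone 3 (5), and 2 to 6 lower for the difference between lines (5). The causes were not tested. Deviations of same-numbered replicates correlated at most at 0.084, the value for replicate 2 of clone 13 with replicate 2 of clone 3. With replicates 1 and 3 of clone 3, clone 13 replicate 2 had correlations of -0.046 and -0.045. Whether same-numbered cultures were handled together was not tested. The replicate block gave 2 higher and 3 lower in clone 3. It gave 4 and 4 in clone 13 and for the mean of both clones. In clone 13 against clone 3 it gave 4 and 5, in A375 4 and 9, and for the difference between lines 5 and 6. The IRF7 call in clone 3 ended (adjusted p = 0.0506), and HLA-C was called for the mean (0.22, adjusted p = 0.047) and the difference between lines (-0.43, adjusted p = 0.0114). No fit without the lone SKMEL28 wild-type library, and no block for comparisons with it, was possible. Depth limits the genes under about 5 CPM.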
